A study of Mus musculus with 2 samples.

Results

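The 9 genes described here encode the core of the G1 restriction machinery: the D cyclins Ccnd1, Ccnd2 and Ccnd3, their kinases Cdk4 and Cdk6, the CDK inhibitors Cdkn1a, Cdkn1b and Cdkn2c, and their main substrate Rb1. They were chosen by gene symbol, and all 9 were found among the 16614 genes listed for each library. The series holds 2 poly-A RNA libraries, 1 from Foxo3 KO and 1 from WT cells, both of the strain C57BL/6. Marrow flushed from femur and tibia was cultured with M-CSF, the macrophage growth factor, for 3 days, and the resulting bone marrow macrophages then received RANKL, the cytokine that turns them into osteoclasts, for 2 days. The allele of the knockout and the sex, age and number of the mice are not given in the labels.

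Extracellular growth factors such as M-CSF induce the D cyclins, which bind CDK4 or CDK6 and phosphorylate the retinoblastoma protein, so that E2F factors are freed to switch on S-phase genes. Proteins of the CIP/KIP group, p21 and p27, bind many cyclin-CDK complexes, whereas those of the INK4 group, such as p18, bind CDK4 and CDK6 themselves. Precursors leave the cell cycle before they fuse into osteoclasts, and p21 and p27 are known from mouse cells to take part in that exit. FoxO factors are known, mostly from fibroblasts and tumour cells, as repressors of the cyclin D1 and D2 genes and as activators of the p27 gene.

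Values were read as FPKM, a unit inferred from the values themselves, which is fragments normalised to transcript length and to the size of the library, so that levels of different genes may be set side by side. A difference is given as a log2 ratio: 1 FPKM was added to each level before taking log2, and the WT value was subtracted from the KO value. A gene counts as measured if either library held it at 1 FPKM or above. With 1 library per genotype no value has a replicate error and there is no test. A fixed size of 2-fold on this scale takes its place, and every difference describes these libraries alone. In bulk RNA, fewer cells of a type and less RNA per cell cannot be told apart.

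The library labelled Foxo3 KO held Foxo3 at 0.548 FPKM, against 10.3 FPKM in the WT library, which is 5.33% of the WT level. From the level that a single read is worth in genes of few reads, the KO library was estimated to hold about 34900000 fragments and the WT library about 25100000, a depth 1.39 times as high in the KO library. Osteoclast markers were abundant in both libraries, with Acp5 at 8636 FPKM in the KO library and 7737 FPKM in the WT library. The summed level of 10 osteoclast markers was 23066 FPKM in the KO library and 20525 FPKM in the WT library, most of it from Acp5, Ctsk and Mmp9. By sign 7 of the 10 had a higher and 3 a lower level in KO cells, near the 57.6% higher among all measured genes. Of 14 macrophage markers 13 had a lower level in KO cells, against 42.4% of all measured genes. Their summed level was 9652 FPKM in the KO library and 11834 FPKM in the WT library. Most of that sum came from Lyz2 alone, at 5674 FPKM in the KO library and 7501 FPKM in the WT library. Of the 9 lymphoid markers 8 stayed at or below 0.5 FPKM in both libraries, and the exception was Cd4. Summed levels were 154.5 FPKM in the KO library and 158.3 FPKM in the WT library for neutrophil markers, and 2.51 FPKM in the KO library and 3.26 FPKM in the WT library for endothelial markers. Erythroid and megakaryocyte markers summed to 26.4 FPKM in the KO library and 56.0 FPKM in the WT library, nearly all of it Pf4, a platelet factor gene.

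Promoters of 3 members are shown because FoxO factors bind DNA through the core GTAAACA, and these windows show a member that holds it, the inhibitor best known as a FoxO target, and the member highest in the KO library relative to WT. The windows, from RefSeq on build GRCm38.p6, run over the 250 bases before an annotated start and read 5′ to 3′ on the gene's strand. Capitals mark a match to the core, which is written here as TGTTTAC because it lies on the opposite strand. They are chr17:47504801-47505050 on the plus strand for Ccnd3, chr6:134920151-134920400 on the plus strand for Cdkn1b and chr4:109666757-109667006 on the minus strand for Cdkn2c.
Ccnd3: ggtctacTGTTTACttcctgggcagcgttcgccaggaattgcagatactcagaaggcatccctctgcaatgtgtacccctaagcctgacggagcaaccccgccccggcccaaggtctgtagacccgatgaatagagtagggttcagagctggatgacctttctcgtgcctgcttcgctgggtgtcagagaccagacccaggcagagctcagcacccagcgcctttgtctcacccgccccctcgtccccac
Cdkn1b: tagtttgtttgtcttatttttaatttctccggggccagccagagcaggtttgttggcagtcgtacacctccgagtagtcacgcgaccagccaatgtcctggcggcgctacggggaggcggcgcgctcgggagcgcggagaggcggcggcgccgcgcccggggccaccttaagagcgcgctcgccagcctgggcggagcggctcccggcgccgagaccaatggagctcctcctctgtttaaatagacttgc
Cdkn2c: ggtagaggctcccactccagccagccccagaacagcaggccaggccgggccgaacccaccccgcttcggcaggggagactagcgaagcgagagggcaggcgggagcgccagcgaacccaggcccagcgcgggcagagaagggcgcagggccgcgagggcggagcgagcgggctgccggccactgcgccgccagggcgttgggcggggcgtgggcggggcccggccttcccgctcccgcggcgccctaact
The core was searched on both strands in windows of 300 bases, of which 250 lie before the start. It stood in 1 of 9 windows of 6 members (Ccnd3, Cdk4, Cdk6, Cdkn1a, Cdkn1b and Cdkn2c), beginning 243 bases before the upstream Ccnd3 start, and in 3.65% of the 32851 windows of all genes. Windows of Ccnd1, Ccnd2 and Rb1 were not analysed here. A match describes letters in a window and no binding was measured.

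Of the measured members, the gene of cyclin D1 differed most between the libraries and was lower in the KO library. Ccnd1 (ENSMUSG00000070348.5, chromosome 7, 144929931 to 144939925, minus strand, mm10) had 4.21 FPKM in the KO library and 10.1 FPKM in the WT library. The KO level was 41.8% of the WT level, 2.39-fold lower, and the log2 ratio was -1.09. Ccnd1 passed 2-fold, which 0.2% of the 10003 measured genes did in the lower direction (20 genes) and 0.12% in the higher direction (12 genes). Those counts include Foxo3 itself, Adcy7 and Retnlg, both listed at 0 in the KO library, and Actr3, listed at 0 in the WT library, where a 0 may be a failed estimate, and without them 17 genes were lower and 11 higher. Ccnd1 ranked 14th from the lowest log2 ratio of all measured genes. The 200 measured genes nearest to it in mean level ran from -0.45 to 0.53, so that none was as far from 0.

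The level of Ccnd1 rested on many reads. Taking its longest annotated transcript, 3740 bases, its values correspond to about 549 fragments in the KO library and 947 in the WT library, the shallower of the pair. With a pseudocount of 5 FPKM, which shrinks genes of low level, the log2 ratio was -0.71 and no longer passed 2-fold. The 3′ end of Ccnd1 shares up to 818 bases of exon with LTO1 on the opposite strand, and how strand was used in counting is not given. That neighbour, listed under its older name Oraov1, stood at 6.87 FPKM in the KO library and 7.15 FPKM in the WT library, a log2 ratio of -0.05. Its level was thus similar in both libraries, and the part of shared reads in the Ccnd1 values was not tested.

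Cyclin D1 is also abundant in mesenchymal cells, whose markers were low here. The 14 stromal and osteoblast markers summed to 12.9 FPKM in the KO library and 13.2 FPKM in the WT library, led by Col1a1, a collagen gene of fibroblasts and osteoblasts, at 3.24 FPKM in the KO library and 3.35 FPKM in the WT library. Most macrophage markers were also lower in KO cells, with a median log2 ratio of -0.24 over 14 genes and values from -1.38 to 0.02. Their part in the lower Ccnd1 level was not tested.

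Ccnd3, the gene of cyclin D3 (ENSMUSG00000034165.16, chromosome 17, 47505051 to 47599691), had 11.7 FPKM in the KO library and 12.7 FPKM in the WT library, a log2 ratio of -0.12. Among all measured genes 40.5% had a log2 ratio at least as far from 0, and the 2-fold size was not reached. Its exons overlap those of Bysl, a ribosome assembly gene on the opposite strand, which stood at 8.28 FPKM in the KO library and 6.88 FPKM in the WT library.

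Ccnd2, the gene of cyclin D2 (ENSMUSG00000000184.12, chromosome 6, 127125162 to 127152193), was hardly detected, at 0.0793 FPKM in the KO library and 0.152 FPKM in the WT library. It reached 1 FPKM in neither library and did not enter the count of measured genes. About 18 fragments in the KO library and 24 in the WT library would account for these levels on its longest transcript, 6330 bases. At so few reads no direction was read from its values. Exons of Ccnd2, Cdk6 and Cdkn1a overlap antisense or unnamed gene models only, on the opposite strand.

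**Figure D1:**
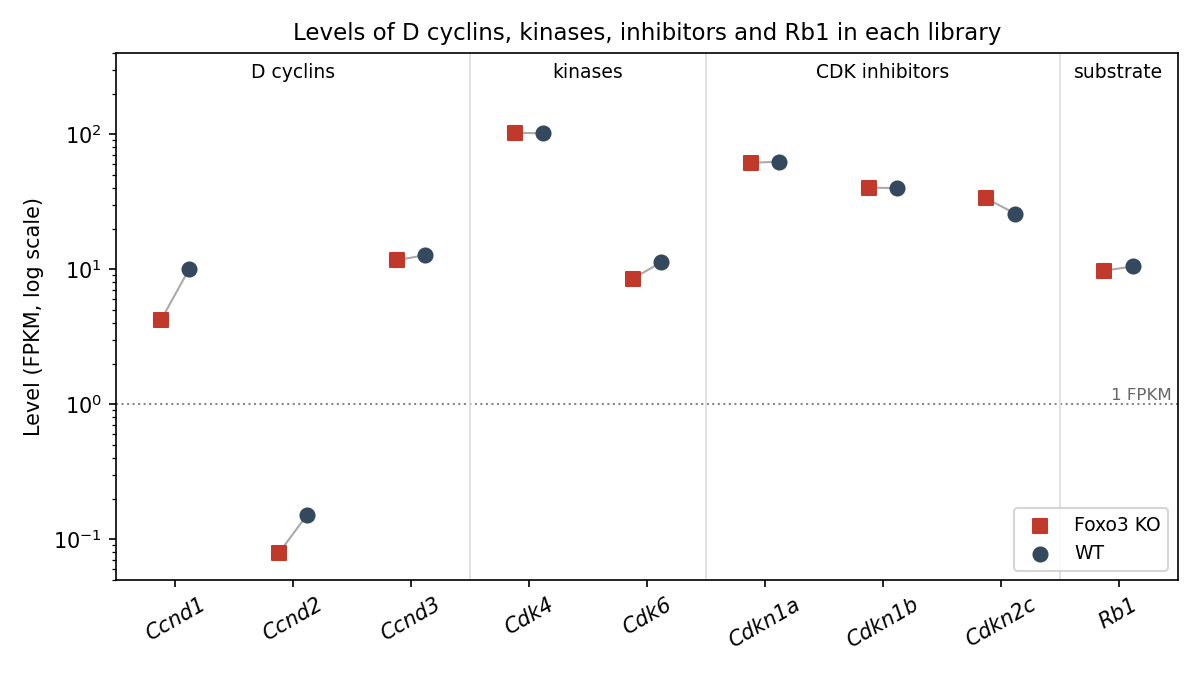
Level of each of the 9 members in FPKM on a log axis, with squares for the Foxo3 KO library and circles for the WT library, 1 library each and no error bars. Ccnd1 shows the widest gap among members above 1 FPKM, at 4.21 FPKM in the KO library and 10.1 FPKM in the WT library, and Ccnd2 lies below 1 FPKM in both.

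The makeup of the D cyclin pool therefore differed between the libraries. The summed level of the D cyclins was 15.9 FPKM in the KO library and 23.0 FPKM in the WT library, so that the KO sum was 69.4% of the WT sum. Ccnd1 made up 26.4% of the sum in the KO library and 43.8% in the WT library, and Ccnd3 made up 73.1% in the KO library and 55.5% in the WT library. For each FPKM of Ccnd3 there were 0.361 FPKM of Ccnd1 in the KO library and 0.790 FPKM in the WT library. Ccnd3 was the most abundant D cyclin transcript in both, and the difference in the sum came mostly from Ccnd1.

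The kinase genes were dominated by Cdk4 in both libraries. Cdk4 (ENSMUSG00000006728.12, chromosome 10, 127063534 to 127067920) had the highest level of all members, with 102.5 FPKM in the KO library and 101.7 FPKM in the WT library. Its log2 ratio of 0.01 turned to -0.01 when the libraries were rescaled, so no direction was read from it. Up to 641 bases of its exons overlap Tspan31, a tetraspanin gene on the opposite strand, at 52.7 FPKM in the KO library and 54.2 FPKM in the WT library.

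Cdk6 (ENSMUSG00000040274.11, chromosome 5, 3341485 to 3531008), the alternative partner of the D cyclins, had 8.52 FPKM in the KO library and 11.2 FPKM in the WT library. The KO level was 75.8% of the WT level and the log2 ratio, -0.36, did not reach 2-fold. It ranked 331st from the lowest of the 10003 measured genes, and 5.17% of them lay at least as far from 0. Of the 200 genes nearest in level, the 5th and 95th percentiles were -0.29 and 0.24, so that Cdk6 stood below that range, while single genes among the 200 ran from -0.95 to 1.24. The sum of Cdk4 and Cdk6 was 111.0 FPKM in the KO library and 112.9 FPKM in the WT library, and Cdk4 made up 92.3% of it in the KO library and 90.0% in the WT library.

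The CIP/KIP inhibitors were abundant and close in level between the libraries. Cdkn1a, the gene of p21 and a classic p53 target (ENSMUSG00000023067.14, chromosome 17, 29090976 to 29100727), had 61.4 FPKM in the KO library and 62.8 FPKM in the WT library, a log2 ratio of -0.03. Cdkn1b, the gene of p27 (ENSMUSG00000003031.14, chromosome 6, 134920401 to 134925513), had 40.3 FPKM in the KO library and 39.8 FPKM in the WT library. Its log2 ratio of 0.02 became -0.01 under either rescaling. Of all measured genes 90.5% lay at least as far from 0 as Cdkn1b, and 81.4% as far as Cdkn1a. Both genes rest on many fragments, about 6398 in the KO library and 4558 in the WT library for Cdkn1b. The number of reads therefore sets little of the uncertainty here, whereas the spread between cultures is unknown, and a difference between genotypes could be smaller or larger than these values.

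Cdkn2c, the gene of the INK4 inhibitor p18 (ENSMUSG00000028551.14, chromosome 4, 109660876 to 109667189), stood out among the inhibitors. It had 33.5 FPKM in the KO library and 25.9 FPKM in the WT library, 1.29-fold higher in the KO library, with a log2 ratio of 0.36. That placed it 191st from the highest of the 10003 measured genes, and the 5th and 95th percentiles of the 200 genes nearest in level were -0.22 and 0.22, with single genes from -0.84 to 0.38. It did not reach 2-fold. The annotation shows no exon of another gene over its exons, nor over those of Cdkn1b. About 2888 fragments in the KO library and 1607 in the WT library lay behind its values.

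**Figure D2:**
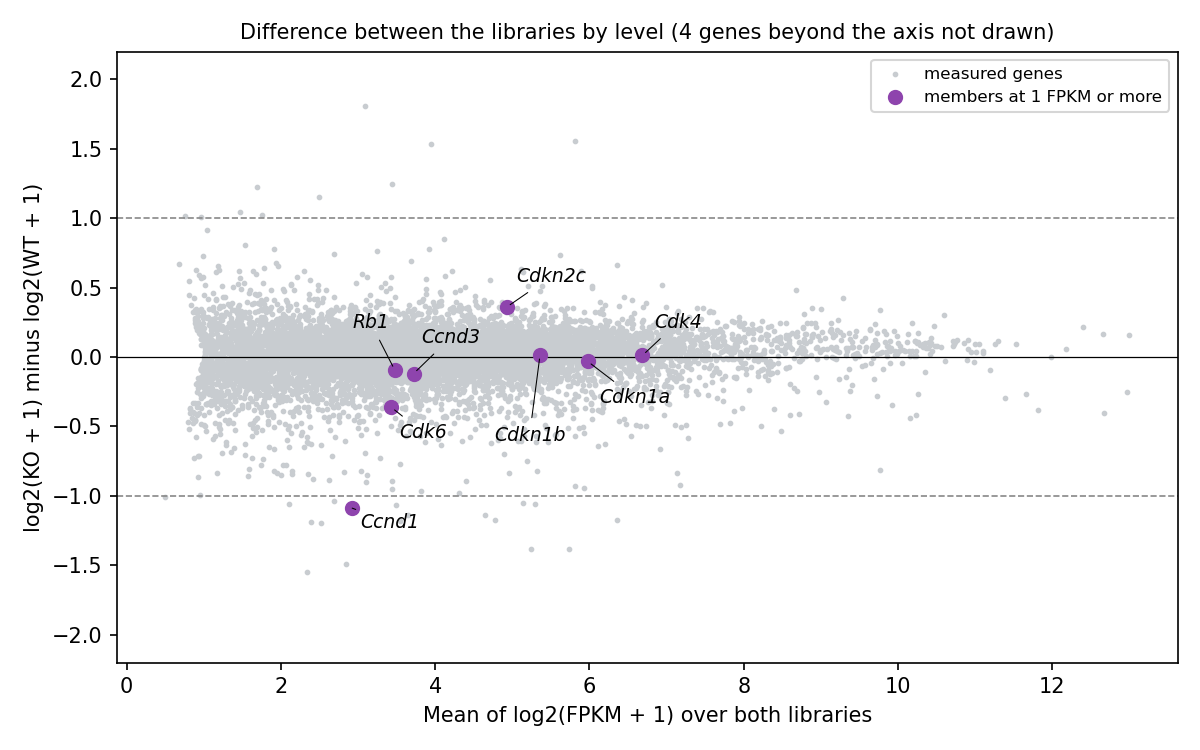
Each point is a measured gene, with its mean of log2(FPKM + 1) over both libraries on the x axis and its log2 ratio, KO minus WT, on the y axis. Purple points are the 8 measured members and dashed lines mark 2-fold. Ccnd1 lies below the lower line at -1.09. Cdk6 at -0.36 lies low but within the cloud, Cdkn2c at 0.36 lies near the upper end of genes of like level, and the other members lie close to 0. The 4 genes beyond the axis are not drawn.

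The inhibitor genes together summed to 135.2 FPKM in the KO library and 128.5 FPKM in the WT library. Cdkn2c made up 24.8% of that sum in the KO library and 20.1% in the WT library. For each FPKM of D cyclin there were 8.47 FPKM of inhibitor in the KO library and 5.59 FPKM in the WT library, a quotient 1.52 times as high in the KO library. For each FPKM of kinase there were 1.22 FPKM of inhibitor in the KO library and 1.14 FPKM in the WT library. The inhibitor to cyclin quotient thus differed mainly through the D cyclins. These are transcript levels, and protein, complex formation and phosphorylation were not measured.

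**Figure D3:**
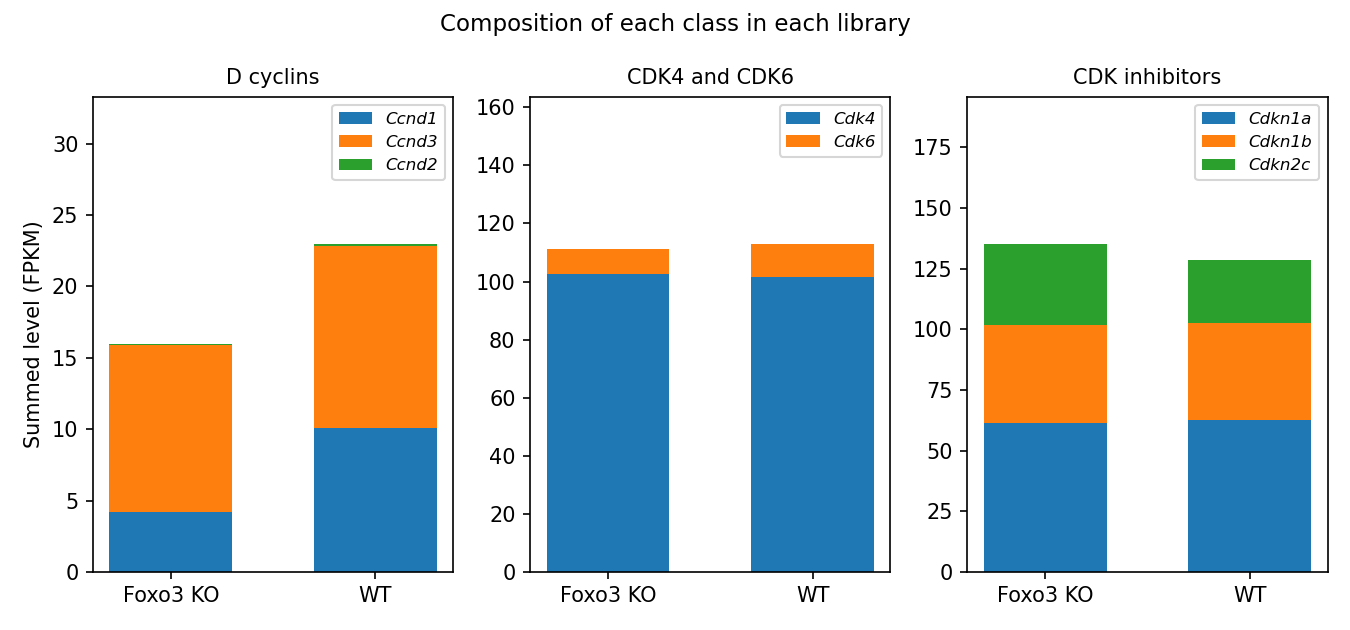
Stacked bars give the summed FPKM of the D cyclins, of Cdk4 and Cdk6, and of the CDK inhibitors in the Foxo3 KO library (left bar) and the WT library (right bar), split by gene, with a y axis of its own in each panel. The D cyclin bar is 15.9 FPKM in the KO library and 23.0 FPKM in the WT library, with a smaller Ccnd1 part in the KO library, and the other pairs of bars are close in height.

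Rb1, the gene of the retinoblastoma protein (ENSMUSG00000022105.6, chromosome 14, 73183673 to 73325822), had 9.77 FPKM in the KO library and 10.49 FPKM in the WT library, a log2 ratio of -0.09. Of all measured genes 50.4% lay at least as far from 0. Its exons overlap those of Rcbtb2 and Lpar6, on the opposite strand. Rcbtb2 stood at 11.99 FPKM in the KO library and 14.9 FPKM in the WT library, and Lpar6 at 10.9 FPKM in the KO library and 12.9 FPKM in the WT library.

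Of the 8 measured members, 1 passed 2-fold, and Ccnd1 was also the only measured member past 1.5-fold, a size that 1.35% of measured genes passed in either direction, 0.94% lower and 0.41% higher. By sign 5 were lower and 3 higher, with a median log2 ratio of -0.06, against 42.4% lower and a median of 0.03 over all measured genes. After trimmed-mean scaling or centring on the median gene, 7 of the 8 were lower and Cdkn2c alone was higher. In the KO library the members ranked, from the highest level down, Cdk4, Cdkn1a, Cdkn1b, Cdkn2c, Ccnd3, Rb1, Cdk6, Ccnd1 and Ccnd2. In the WT library the order was the same except that Cdk6 stood above Rb1. With no replicates it is not known which neighbours in that order differ beyond their spread, and Ccnd3, Rb1 and Cdk6 lay close together in both libraries.

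The surrounding cell cycle genes were followed in 10 lists of 148 genes, of which 138 were measured. With 1 FPKM added, none of the 138 passed 2-fold, and none was as far from 0 as Ccnd1. Over all measured genes 0.32% passed it in either direction, so that none among so few genes is no contrast. Without the added 1 FPKM, Gadd45a would pass 2-fold, at 1.99 FPKM in the KO library and 4.39 FPKM in the WT library. Of them 66 were higher and 72 lower, with a median log2 ratio of -0.01. After either rescaling 54 were higher and 84 lower.

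By sign, most DNA replication and mitosis genes were lower in the KO library, by small amounts, against 42.4% of all measured genes. Of 21 measured DNA replication genes that E2F drives, 15 were lower and 6 higher, with a median of -0.09. The helicase genes Mcm6, at 25.4 FPKM in the KO library and 28.9 FPKM in the WT library, and Mcm7, at 11.9 FPKM in the KO library and 13.7 FPKM in the WT library, were lower, and the licensing factor gene Cdt1 was higher at 24.1 FPKM in the KO library and 21.5 FPKM in the WT library. Of 18 mitosis genes 11 were lower and 7 higher, with a median of -0.11 that became 0.10 over the genes reaching 10 FPKM. Their summed levels were close, at 110.6 FPKM in the KO library and 111.2 FPKM in the WT library. For the 3 mitosis genes that reached 10 FPKM, the log2 ratio was -0.18 for the centromeric histone gene Cenpa, 0.24 for the ubiquitin-conjugating enzyme gene Ube2c and 0.10 for Birc5, which encodes survivin. Levels of 13 of 14 macrophage markers were lower too, and their part was not tested.

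The E, A and B cyclins with their kinases and CDC25 phosphatases were lower in 6 of 9 measured cases, with a median of -0.05. Among all measured genes 42.4% were lower as deposited. Ccna2, cyclin A2, had 9.02 FPKM in the KO library and 10.1 FPKM in the WT library, Cdc25b had a log2 ratio of -0.18 and Cdk2 one of 0.11. Ccne1, the gene of cyclin E1, lay farthest from 0 in this list at 0.39, with 4.24 FPKM in the KO library and 3.01 FPKM in the WT library. It was named after its values were seen. Among the pocket proteins, E2F and DP factors, 6 of 11 were lower, with a median of -0.05. Rbl2, the gene of the RB relative p130, had 10.9 FPKM in the KO library and 12.01 FPKM in the WT library, and the log2 ratio was -0.14 for E2f1 and -0.11 for Tfdp1.

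Of the other CDK inhibitors, Cdkn2b, the gene of the INK4 protein p15, had the highest level, with 19.9 FPKM in the KO library and 15.7 FPKM in the WT library (log2 ratio 0.32). It differed in the same direction and by a similar amount as Cdkn2c. Its neighbour Cdkn2a, which encodes p16 and ARF, was lower by sign, with 1.88 FPKM in the KO library and 2.54 FPKM in the WT library. The last INK4 gene, Cdkn2d, stayed below 1 FPKM in both, at 0.568 FPKM in the KO library and 0.383 FPKM in the WT library. By sign Cdkn2a was thus the only INK4 gene lower in the KO library, but Cdkn2a and Cdkn2d were too low for a direction to be read. Cdkn3, a phosphatase gene of that list, had a log2 ratio of 0.17.

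Genes for D cyclin and p27 turnover and for CDK activation split 9 higher to 8 lower, with a median of 0.02. Their values lay between -0.09 and 0.25, with Ddb1, of a ubiquitin ligase adaptor complex, at -0.09, Cks2, a CDK-binding subunit gene, at 0.13 and the kinase gene Gsk3a at 0.08. The receptor and signalling genes that link M-CSF to the D cyclins were also close, with 13 of 22 higher as deposited, 9 of 22 after rescaling, and a median of 0.01. Csf1r, the M-CSF receptor gene, named after its values were seen, had 694.6 FPKM in the KO library and 697.1 FPKM in the WT library. Junb had the highest log2 ratio of this list, 0.52, with 145.6 FPKM in the KO library and 101.5 FPKM in the WT library, while the log2 ratio was -0.16 for the PI3K subunit gene Pik3cd and -0.13 for Myc.

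Of p53 targets other than Cdkn1a, 10 of 15 were lower, with a median of -0.02, against 42.4% lower among all measured genes. Sesn1, a sestrin gene that FoxO factors also induce, had 56.2 FPKM in the KO library and 73.6 FPKM in the WT library, and Trp53inp1 had 28.2 FPKM in the KO library and 36.2 FPKM in the WT library, whereas Pmaip1, the gene of NOXA, had a log2 ratio of 0.12. Of the arrest genes known as FoxO targets, 5 of 8 were lower as deposited, with a median of -0.13, and 6 of 8 after either rescaling. Gadd45b had 8.84 FPKM in the KO library and 11.05 FPKM in the WT library and Btg1, an antiproliferative gene, had 46.3 FPKM in the KO library and 37.4 FPKM in the WT library. Gadd45a, named after its values were seen, had the value nearest to that of Ccnd1 in the 10 cell cycle lists, with 1.99 FPKM in the KO library and 4.39 FPKM in the WT library, a log2 ratio of -0.85. The known targets thus held values on both sides of 0.

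The remaining cyclins and CDKs, listed with some genes named for binding them, were higher in 14 of 17 cases, with a median of 0.07. After rescaling 12 of 17 were higher. Over all measured genes 57.6% were higher as deposited, 51.8% after trimmed-mean scaling and 50% after centring. The lowest were Cdk5rap1, which modifies mitochondrial tRNA, at 8.98 FPKM in the KO library and 12.8 FPKM in the WT library, and Cdk14, at 8.22 FPKM in the KO library and 10.2 FPKM in the WT library. The highest was the CDK2-binding gene Cdk2ap2, with a log2 ratio of 0.15.

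**Figure D4:**
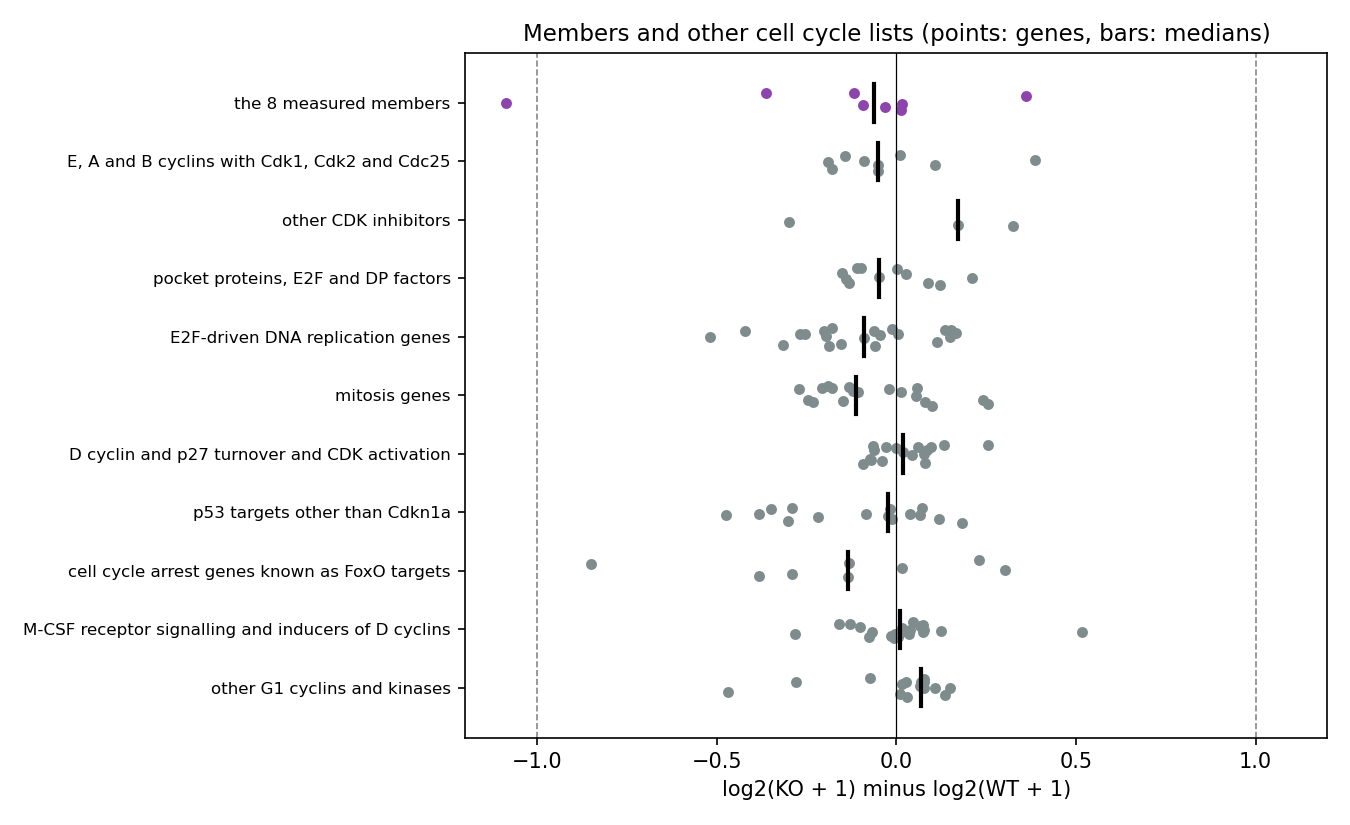
Log2 ratios, KO minus WT, of the 8 measured members (purple, top row) and of the measured genes of 10 other cell cycle lists (grey), each point a gene, black bars the medians and dashed lines 2-fold. Ccnd1 is the single point past a dashed line, and the medians of the lists lie between -0.13 and 0.17.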

How the data were processed

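RNA of 1 Foxo3 KO and 1 WT culture was sequenced on an Illumina instrument after poly-A selection and TruSeq library construction, per the labels' protocols. The deposited values were read as FPKM. That unit is an inference, since neither headers nor labels state it: the values are not whole numbers and sum to 540601 in the KO library and 530701 in the WT library. A constant of 0.000001 on every value was subtracted. Per the submitters' processing notes, TopHat, edgeR and build mm10 were used, with no versions or roles. The quantifier, annotation, strand setting and any scaling were not given in the sources used here.

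The members and lists were chosen with earlier results of these data known. Genes at 1 FPKM or more in 1 library were compared at 2-fold on log2(FPKM + 1), with no p-value, count model or counting interval, since there is 1 library per group and no counts. Depth was estimated from 1461 genes with a single transcript longer than 1500 bases in GENCODE M21: the lowest values times length form a peak, of 85 genes in the KO library and 92 in the WT library, taken as 1 fragment. Fragment numbers per gene assume its longest transcript and are approximate. Text names all members, and from each list every gene past 2-fold and the 3 farthest from 0 at 10 FPKM or more (1 FPKM where fewer than 3 reach 10), and from cell type lists the 3 most abundant, of which a few are printed. Genes named outside this rule are marked in the text, apart from genes that overlap a member and Cdkn2d. Adcy7, Retnlg and Actr3 were also named outside it, after their values were seen, because 1 library listed each at 0. Alternatives were other pseudocounts, minima and thresholds, scaling by a trimmed mean (trims of 30% on log ratios and 5% on mean level), subtraction of the median log2 ratio, and means in place of medians. Only the 2-fold call and the trimmed-mean scaling were tried on simulated data. The noise in those data came from genes short of 2-fold, so they could not show how often unchanged genes pass it. Python 3.11.15, numpy 2.4.6, pandas 2.3.3 and matplotlib 3.10.9 were used.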

Additional observations from a re-analysis of the deposited data

How the results depend on the processing

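Of 128 recomputed values, 115 stayed within the spread of genes of like level, or within 1.5 times for counts. The log2 ratio of Ccnd1 was -0.7108 when 5 FPKM was added and passed 2-fold under the other 3 alternatives, and the ratios of the other members stayed within their bound in all 4. Cdk4 and Cdkn1b changed sign under both scalings, which lower log2 ratios by up to 0.03. Adding 5 FPKM gave 5 higher and 6 lower genes, and adding 0.25 FPKM gave 39 lower genes. A minimum of 10 FPKM gave 5 higher genes. At 1.5-fold there were 41 higher and 94 lower genes, and at 4-fold 2 higher and 2 lower. That minimum also brought the median log2 ratio to 0.3236 for the other CDK inhibitors, where 1 gene was left, and to 0.1002 for mitosis genes, where 3 were left. Without its most abundant member, the summed level in KO relative to WT was 0.4194 for the D cyclins, which leaves Ccnd1 with Ccnd2, and 0.7582 for the kinases, which leaves Cdk6. These follow from how each alternative is built. No paired analysis was possible because there is 1 library per genotype, and for the same reason none could be left out. Depth limits Ccnd2 most.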

Other observations

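Genes around Ccnd1 were looked at after its values were seen. Of 13 other protein-coding genes within 1 Mb on chromosome 7, 9 were listed and 5 were measured. Cttn, the gene of the actin-binding protein cortactin, had 26.1 FPKM in the KO library and 21.6 FPKM in the WT library, and Fadd, the death receptor adaptor gene, had 5.92 FPKM in the KO library and 5.25 FPKM in the WT library. The log2 ratio was 0.03 for Ppfia1, -0.05 for Oraov1 and -0.05 for Tpcn2. None of the 5 passed 2-fold, a size that 0.32% of all measured genes passed in either direction. With so few genes this says little about the stretch.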
